A study of Mus musculus with 10 samples.

Results

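The genes described are 9 transcription factors of myeloid cells, chosen by name: the C/EBP family members *Cebpa*, *Cebpb*, *Cebpd*, *Cebpe* and *Cebpg*, and *Irf8*, *Klf4*, *Gfi1* and *Maf*. They are 9 of 24062 gene rows in the count data, and all 9 passed the filter that left 12221 genes for testing, also on the Delta1 libraries alone. RNA was sequenced from mouse bone marrow LSK cells (Lin-SCA1+KIT+ progenitors, from C57BL/6J mice according to the methods of the study) that had been cultured with or without a Notch ligand. In the no Notch control, called IgG, LSK cells labelled WT grew on human IgG1 and were harvested on day 14 (4 libraries, titled D1, D2, R1 and R2, letters that the labels leave unexplained). DN1 cells (KIT++CD44+CD25-), DN2a cells (KIT++CD44+CD25+) and DN2b cells (KIT+CD44loCD25+) were sorted from LSK cultures on a high density of immobilized Delta1, with 2 libraries per stage, numbered replicate 1 and replicate 2 after the earlier and the later year of the dates in their titles. DN2a and DN2b libraries of 1 number share a date, while DN1 shares only the year with them, and the labels do not say whether a number pairs DN1 with DN2. The study's methods take the 3 stages from each LSK isolate. All cultures shared SCF, FLT-3 ligand, IL-6 and IL-11. IL-7 was added only to the cultures that gave DN2a and DN2b, so stage and IL-7 cannot be told apart, and the IgG cells were not sorted for a DN phenotype. By the study's methods IL-7 was added at day 14, so the DN2 cells were harvested later in culture than the IgG cells. No culture day is given for the Delta1 libraries, and stage and time in culture cannot be told apart. The age of the mice is not given in the sources used here.

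C/EBP proteins are basic leucine zipper factors that bind DNA as pairs, and in progenitors they are known to drive granulocyte and macrophage programs that oppose the T-lineage program started by Notch. *Cebpa* is required for granulocyte and monocyte progenitors, *Cebpe* for the late steps of granulocyte maturation, and *Cebpb* and *Cebpd* are induced by cytokines in myeloid cells, whereas *Cebpg* encodes a family member without a classical activation domain that pairs with the others and with ATF factors. *Irf8* and *Klf4* act in monocytes and dendritic cells, *Maf* in macrophages, and *Gfi1* encodes a zinc finger repressor used both in neutrophils and in early T cell precursors.

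Averaged over the 3 Delta1 stages, 7 members fell against IgG, *Cebpa*, *Cebpb*, *Cebpd*, *Cebpe*, *Irf8*, *Gfi1* and *Maf*, and 30.0% of all genes tested were lower at the same threshold. *Cebpg* was between 41.5 and 83.5 CPM in all 10 libraries, and *Klf4*, which differed by up to 19.3-fold between libraries of one stage, was not called. Among the stages, *Cebpd* was the member called between DN1 and DN2a or DN2b, where *Cebpa* had the larger fold change and missed the threshold. The DN1 libraries differed from each other by 9.49-fold in *Cebpa* and 18.0-fold in *Cebpe*, and neutrophil genes differed with them. These comparisons are of bulk RNA, in which fewer cells of a type and less RNA per cell cannot be told apart.

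Levels are given in CPM, counts per 1000000 reads on genes. Calls come from edgeR's quasi-likelihood test on all 10 libraries in 4 groups, at an adjusted p under 0.05 after Benjamini-Hochberg adjustment over the 12221 genes, and every adjusted p printed here is from that test unless another is named. The 3 comparisons with IgG share the same 4 control libraries. Reads on genes numbered between 12354635 and 35367925 per library, so that 3 counts, taken as the floor, corresponded to 0.0848 to 0.243 CPM. Intervals on counts cover counting error only, and p-values measure the spread between these libraries. T-lineage and myeloid markers separated the groups. The summed level of 8 T-lineage markers was 373 to 430 CPM in DN1, 2140 to 2990 in DN2a and 3720 to 4850 in DN2b against 1.60 to 4.35 in IgG, while 12 neutrophil markers summed to 24700 to 66600 CPM in IgG and 11 monocyte or macrophage markers to 2610 to 5740. The Delta1 libraries were not free of other markers. All 12 neutrophil markers reached 1 CPM in DN1 replicate 1, and 8 mast cell or basophil markers summed to 252 to 1710 CPM in Delta1 against 74.8 to 233 in IgG. *Cpa3*, a mast cell protease gene, made up 68.8% to 99.3% of the Delta1 sums, and *Tpsb2* and *Prss34* were at 0 in all 4 DN2 libraries. The other 7 of these markers summed to 91.1 and 173 CPM in IgG D1 and D2, 533 and 123 in DN1 and 1.76 to 8.62 in DN2. In IgG R1 and R2 all 8 summed to 74.8 and 118, of which *Cpa3* was 8.26 and 17.6. The other 7 markers did not move as one. *Fcer1a* (320 and 67.3 CPM) and *Ms4a2* (147 and 44.9) were higher in both DN1 libraries than in IgG (at most 5.58 and 8.62), and *Prss34* (3.49 and 0.108) and *Tpsb2* (0.0442 and 0) were lower in both than in IgG (at least 8.79 and 0.594).

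The promoters of *Cebpa* and *Cebpg* are shown because these neighbouring genes, 62.7 kb apart on chromosome 7 and read from opposite strands, had the most unlike levels of the family. *Cebpa* lies at chr7:35119293-35121928 on the plus strand and *Cebpg* at chr7:35046422-35056573 on the minus strand (mm10, GENCODE vM21). Each sequence runs 5′ to 3′ on the gene's own strand over 300 bases, from 250 before to 50 after the start (RefSeq, GRCm38.p6), the first at chr7:35119043-35119342 and the second at chr7:35056517-35056816. Capitals mark matches to the motifs searched.
Cebpa: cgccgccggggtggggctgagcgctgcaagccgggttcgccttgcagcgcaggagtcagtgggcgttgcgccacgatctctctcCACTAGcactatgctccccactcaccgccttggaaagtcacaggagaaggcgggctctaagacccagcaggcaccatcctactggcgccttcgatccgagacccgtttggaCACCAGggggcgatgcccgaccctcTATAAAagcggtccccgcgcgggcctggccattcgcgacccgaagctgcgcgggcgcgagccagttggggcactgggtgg
Cebpg: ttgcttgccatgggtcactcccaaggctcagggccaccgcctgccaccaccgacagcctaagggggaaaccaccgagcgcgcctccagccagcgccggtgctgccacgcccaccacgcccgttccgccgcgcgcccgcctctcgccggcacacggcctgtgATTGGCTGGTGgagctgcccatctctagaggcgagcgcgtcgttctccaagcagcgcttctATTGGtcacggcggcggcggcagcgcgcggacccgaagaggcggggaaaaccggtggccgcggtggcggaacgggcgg

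The *Cebpa* window held a TATAAA 30 bases before the start, a match found in 13.6% of 32817 promoters of the same length. It also held the N-box CACNAG, the site type bound by HES1, 166 and 55 bases before the start, a motif present in 42.5% of promoters. The *Cebpg* window held no TATAAA but CCAAT on the other strand 89 and 28 bases before the start (37.4% of promoters) and CACNAG on the other strand 84 bases before it, next to the first CCAAT. Neither window matched the C/EBP palindrome TTGCNNAA (10.8% of promoters), the RBPJ core TGGGAA (25.6%) or the PU.1 core GAGGAAGT (3.20%), searched on both strands. Among the other members, the RBPJ core was matched in both *Irf8* windows, 36 bases after one start and 242 bases before the other, and TTGCNNAA in 1 of the *Gfi1* windows, 143 bases before the start. A match is a description of letters and not a site of binding. Promoters of 6 members, in 8 windows, were in the table, and those of *Cebpd*, *Cebpe* and *Maf* were not. The observed over expected CpG ratio was 0.853 for *Cebpa*, 1.03 for *Cebpb*, 0.988 for *Cebpg* and 0.974 for *Klf4*, against a median of 0.383 over all promoters. The 2 windows of *Irf8* (1.03 and 0.357) and of *Gfi1* (0.641 and 0.412) differed from each other.

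*Cebpa* was the member with the largest fitted fall against IgG. The 4 IgG libraries held 226, 193, 161 and 192 CPM, the DN1 libraries of replicates 1 and 2 held 14.9 and 1.57, the DN2a libraries 0.291 and 0, and the DN2b libraries 0 and 0.243. Every Delta1 library was thus below every IgG library, as for 16.5% of all genes, and the 4 DN2 libraries together held 11 counts of the gene. The mean was 193 ± 26.5 CPM (SD, n = 4) in IgG and 8.23 ± 9.42 (SD, n = 2) in DN1, a 23.5-fold difference and a log2 fold change of -4.88 (SE 0.93, adjusted p = 0.00502), which was -7.16 without DN1 replicate 1 and -4.04 without replicate 2. Against IgG, the log2 fold change was -10.11 in DN2a (SE 1.27, adjusted p = 5.00e-04) and -10.80 in DN2b (SE 1.37, adjusted p = 5.39e-04). The fitted value in DN2b depends on the prior count, since both of its libraries were at the floor. It was -9.72 without DN2b replicate 1 and -15.23 without replicate 2, and that in DN2a was -15.13 without replicate 1 and -9.47 without replicate 2. The values near -15 rest on a library at 0 counts. By pooled counts, 20949 in IgG against 3 in DN2b, IgG was 1750-fold higher (95% exact interval 597 to 8460).

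*Cebpb* and *Cebpd* were lower in all 6 Delta1 libraries than in any IgG library, as were 16.5% of all genes, but they parted in the DN2 stages. *Cebpb* had 76.7 and 75.1 CPM in IgG libraries D1 and D2 and 233 and 264 in R1 and R2, so that the control itself varied by 3.51-fold. Its Delta1 libraries held 14.3 and 2.49 CPM (DN1), 4.19 and 6.25 (DN2a), and 1.82 and 3.72 (DN2b), and these stages overlapped except that both DN2b libraries were below both DN2a libraries, as for 16.1% of genes. *Cebpb* thus stayed above the floor in every library. Its log2 fold changes against IgG were -4.51 in DN1 (SE 0.84), -4.97 in DN2a (SE 0.86) and -5.90 in DN2b (SE 0.92), with adjusted p-values of 0.00457, 0.00206 and 0.00133. The DN1 value was -6.16 without DN1 replicate 1 and -3.76 without replicate 2. *Cebpd* had 39.4, 87.6, 116 and 120 CPM in IgG, 7.64 and 6.27 (DN1), 0.255 and 0.503 (DN2a), and 0.195 and 0.971 (DN2b). DN1 was therefore intermediate and tight for *Cebpd*, with no library of another group inside its range. The log2 fold change of *Cebpd* against IgG was -3.95 in DN1 (SE 0.58, adjusted p = 0.00167), -8.02 in DN2a (SE 0.75, adjusted p = 1.48e-04) and -7.38 in DN2b (SE 0.73, adjusted p = 1.61e-04), the last of which was -6.61 without DN2b replicate 1 and -8.83 without replicate 2.

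*Cebpe*, the factor of late granulocyte maturation, was the C/EBP member with the least certain fold change. It had 32.9, 118, 83.8 and 59.3 CPM in IgG, 12.7 and 0.703 (DN1), 0.328 and 1.80 (DN2a), and 0 and 0.648 (DN2b). All 6 Delta1 libraries were below all IgG libraries, as for 16.5% of all genes, while the DN1 and DN2a libraries overlapped. Against IgG, the log2 fold change was -3.80 in DN1 (SE 1.22, adjusted p = 0.0417), -6.29 in DN2a (SE 1.44, adjusted p = 0.00726) and -8.02 in DN2b (SE 1.64, adjusted p = 0.00473). In DN1 the call was lost with DN1 replicate 2 left out (log2 fold change -2.89, adjusted p = 0.138), with IgG library D2, R1 or R2 left out (adjusted p = 0.0636, 0.0779 and 0.0545), with IgG reduced to D1 and D2 (0.103) or to R1 and R2 (0.0795), and with scaling to library size (-3.45, adjusted p = 0.0532). Without DN1 replicate 1 it was -6.92. In DN2a the call was lost with replicate 1 left out (-5.41, adjusted p = 0.0698), and the value was -7.92 without replicate 2. In DN2b it was -6.94 without replicate 1 and -13.85 without replicate 2, which left a library at 0 counts. Within IgG, the order of the 4 libraries in *Cebpe*, D1, R2, R1 and D2 from low to high, was also their order in the summed neutrophil markers, 24700, 26300, 42900 and 66600 CPM. None of the other members had that order. *Cebpa* was highest in D1 (226 CPM), where the marker sum was lowest.

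*Cebpg* did not fall. Its libraries held 47.9, 48.1, 41.5 and 50.4 CPM in IgG, 44.7 and 59.9 (DN1), 63.3 and 78.2 (DN2a), and 73.2 and 83.5 (DN2b). The 4 DN2 libraries were above all IgG libraries, as were 31.7% of genes in DN2a and 29.7% in DN2b, and 1 of the DN1 libraries was within the IgG range. The log2 fold change against IgG was 0.51 in DN2a (SE 0.23, adjusted p = 0.0904) and 0.65 in DN2b (SE 0.23, adjusted p = 0.0428), where 19.9% of all genes were called higher. The DN2b call held in 8 of 17 alternative settings. It was lost with either DN2b library (adjusted p = 0.122 without replicate 1 and 0.175 without replicate 2), either DN2a library (0.0589 and 0.0573) or IgG library D1, R1 or R2 left out (0.0528, 0.105 and 0.0831), with no filter on low counts (0.0796) and with IgG reduced to D1 and D2 (0.225). In DN1 the log2 fold change was -0.11 (SE 0.23, adjusted p = 0.748) with TMM scaling and 0.15 with scaling to library size alone. That scaling also called *Cebpg* higher in DN2a (0.59, adjusted p = 0.0414) and with the 3 stages averaged (0.49, adjusted p = 0.0246). *Cebpg* shares exon bases with genes on both strands (*Gm44836* and *Gm45095*), and the strand setting of the counting is not given in the sources used here, so part of its count is uncertain. *Cebpa*, *Cebpb*, *Cebpd*, *Gfi1* and *Maf* also share exon bases with a gene on the opposite strand.

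**Figure D1:**
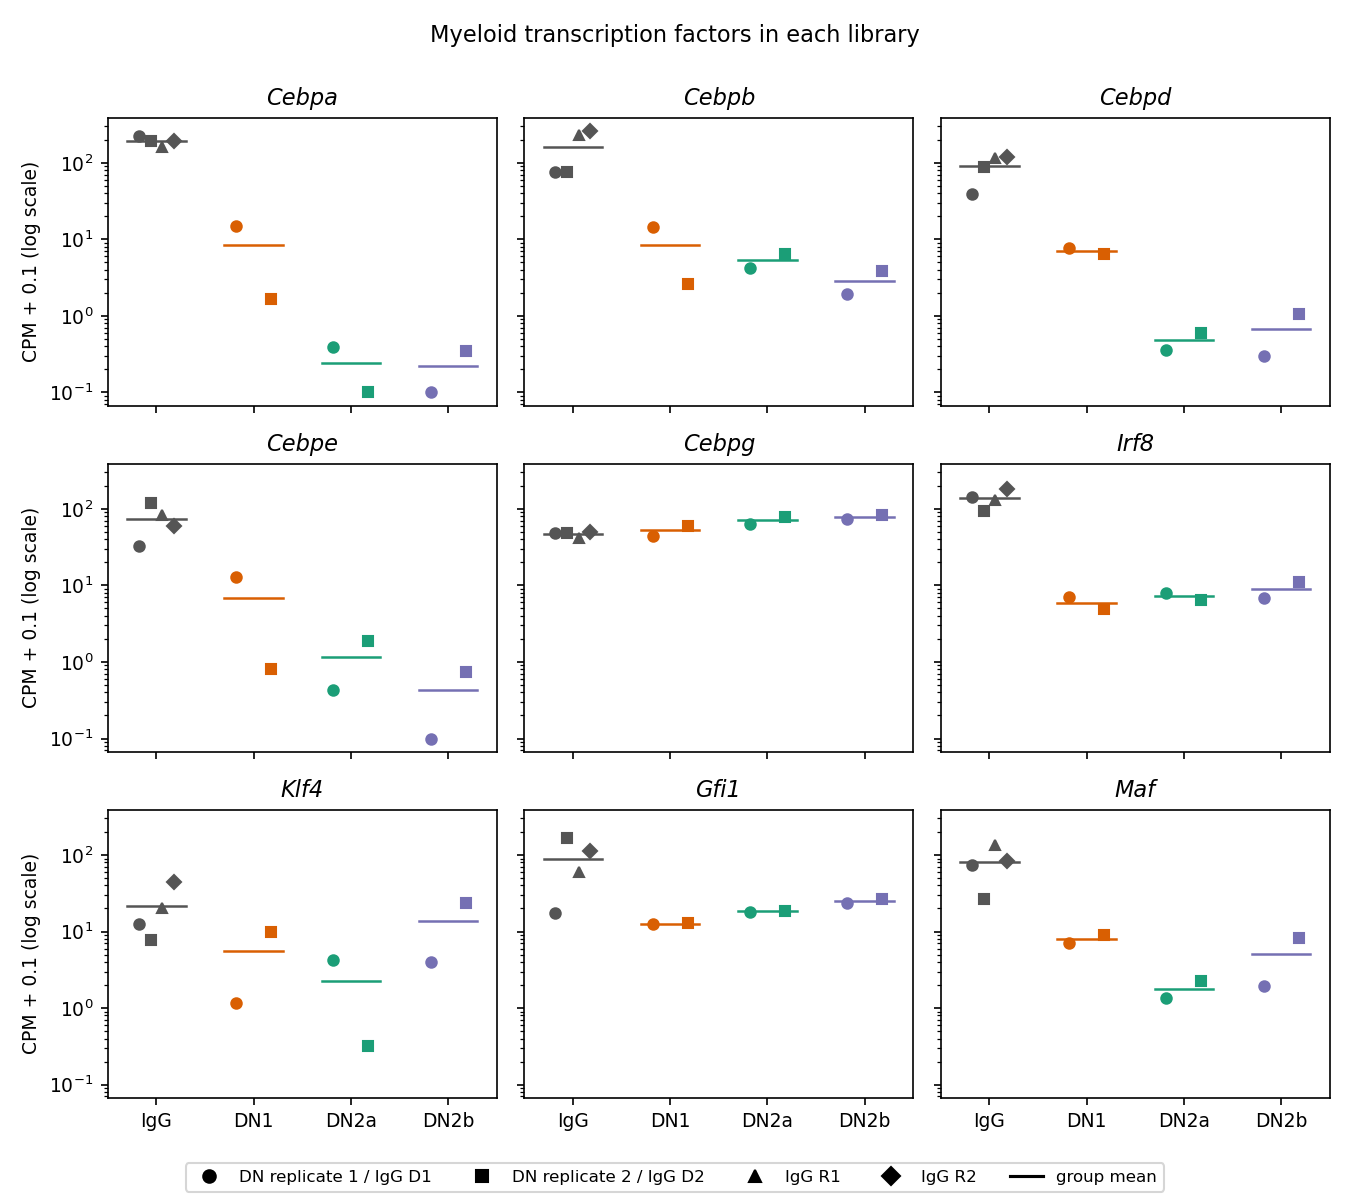
Level of each of the 9 factors in every library, in CPM with 0.1 added, on a log axis shared by all panels, for IgG (4 libraries) and DN1, DN2a and DN2b (2 each). Points are libraries and lines are group means, and a marker shape shared by an IgG library and a DN replicate does not pair them. *Cebpa*, *Cebpb*, *Cebpd*, *Cebpe*, *Irf8* and *Maf* have every Delta1 library below the IgG range, as do 16.5% of all genes. *Cebpg* is flat on this axis, and *Klf4* and *Gfi1* overlap between IgG and Delta1 libraries.

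The make-up of the C/EBP family changed with these levels. For a comparison between genes, CPM was divided by exon length (CPM per kb of exon, GENCODE vM21, which may not be the annotation used for counting). The summed level of the 5 C/EBP genes on this scale was 182, 250, 322 and 337 in the IgG libraries, 35.4 and 15.1 (DN1), 14.5 and 19.6 (DN2a), and 14.3 and 18.2 (DN2b). *Cebpg* made up 2.29% to 4.67% of that sum in IgG, 22.5% and 70.3% in the DN1 libraries of replicates 1 and 2, 70.8% to 77.7% in DN2a and 81.6% to 91.2% in DN2b. *Cebpa* went the other way, from 19.0% to 47.1% in IgG through 16.0% and 3.93% in DN1 to at most 0.763% in DN2a and 0.506% in DN2b. *Cebpb* had the second largest share in DN2a (19.2% and 21.2%) and DN2b (8.48% and 13.6%). By mean level per kb, the order in IgG was *Cebpb* (108), *Cebpa* (73.3), *Cebpe* (59.3), *Cebpd* (24.2) and *Cebpg* (8.36), and in DN2b *Cebpg* (13.9) came first and *Cebpa* (0.0461) last. A share can move because any member of the sum moves.

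**Figure D2:**
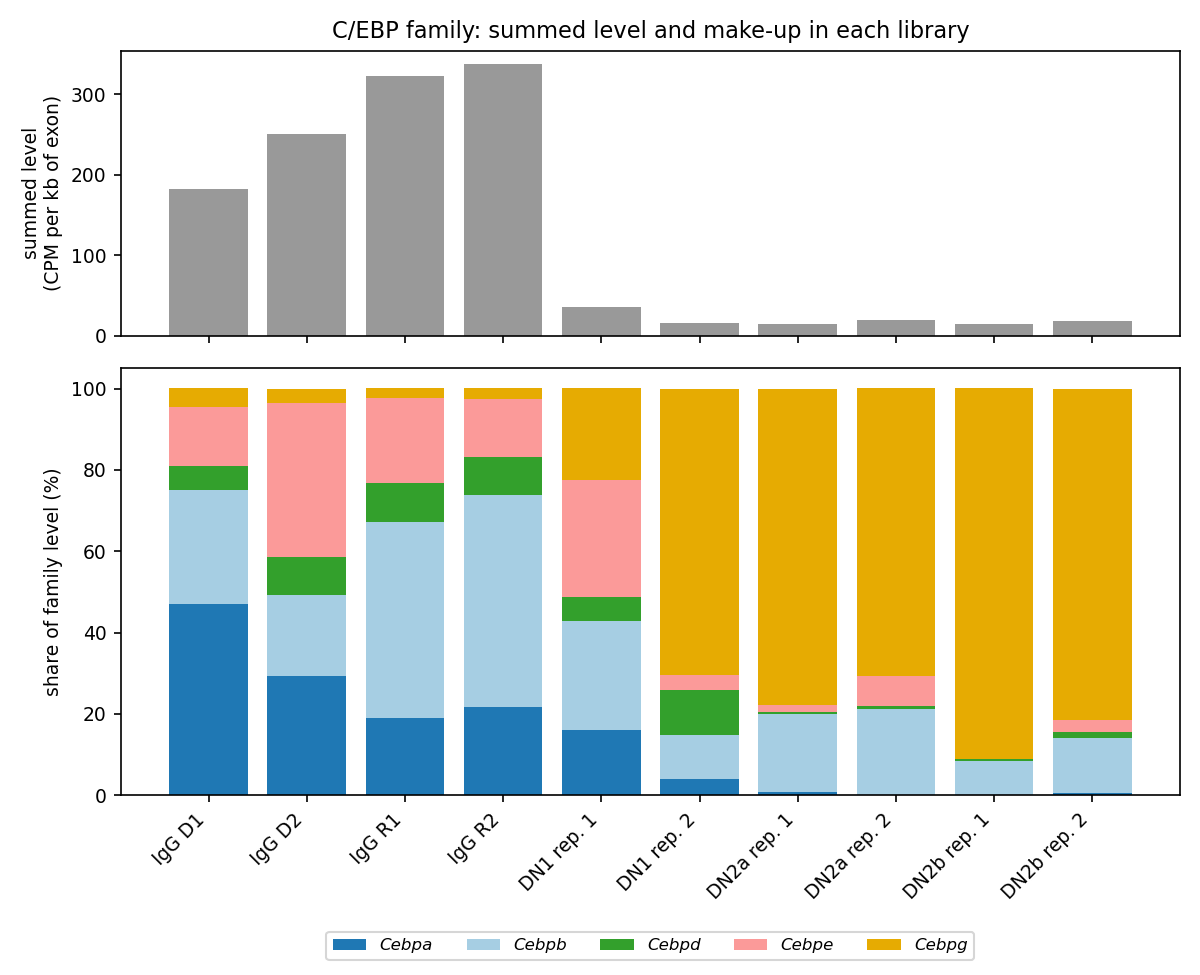
Summed level of the 5 C/EBP genes (top, CPM per kb of exon) and the percent share of each gene in that sum (bottom) in each of the 10 libraries. The sum is 182 to 337 in IgG and 14.3 to 35.4 in the Delta1 libraries, where *Cebpg* takes 22.5% (DN1 replicate 1) to 91.2% (DN2b replicate 1).

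*Irf8*, a factor of monocytes and dendritic cells, fell to the same range in the 3 Delta1 stages. It had 145, 94.8, 129 and 182 CPM in IgG, 6.89 and 4.76 (DN1), 7.94 and 6.40 (DN2a), and 6.83 and 11.0 (DN2b). All Delta1 libraries were below the IgG range, as for 16.5% of all genes, and the stages overlapped with each other. The log2 fold change against IgG was -4.82 in DN1 (SE 0.34), -4.32 in DN2a (SE 0.33) and -4.02 in DN2b (SE 0.33), with adjusted p-values of 7.25e-05, 6.07e-05 and 6.03e-05. These calls held in all 17 alternative settings of each comparison. The *Irf8* standard errors were the smallest of the members that fell. *Maf*, a factor of macrophages, had 74.8, 26.8, 136 and 83.9 CPM in IgG, 7.07 and 8.92 (DN1), 1.24 and 2.16 (DN2a), and 1.82 and 8.18 (DN2b). Every Delta1 library was lower than the lowest IgG library, D2, as for 16.5% of all genes. DN2b spanned from the DN2a to the DN1 level. The log2 fold change of *Maf* was -3.56 in DN1 (SE 0.75, adjusted p = 0.00801), -5.63 in DN2a (SE 0.86, adjusted p = 0.00120) and -4.09 in DN2b (SE 0.78, adjusted p = 0.00348), the last of which was -3.38 without DN2b replicate 1 and -5.47 without replicate 2. In DN1 the call was lost with either DN1 library left out (adjusted p = 0.0537 without replicate 1 and 0.0511 without replicate 2).

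For *Gfi1*, IgG was the variable group and the Delta1 stages were tight. Its IgG libraries held 17.5, 167, 60.2 and 112 CPM, a 9.49-fold range, against 12.4 and 12.8 (DN1), 18.0 and 18.5 (DN2a), and 23.5 and 26.9 (DN2b). IgG library D1 lay within the Delta1 range, so IgG and Delta1 overlapped, while DN1, DN2a and DN2b did not overlap with each other. Without overlap, 12.1% of genes were higher in DN2a than in DN1, 13.2% in DN2b than in DN1 and 14.5% in DN2b than in DN2a, and none of these steps was called for *Gfi1*. Against IgG the log2 fold change was -3.09 in DN1 (SE 0.76, adjusted p = 0.0153), -2.36 in DN2a (SE 0.73, adjusted p = 0.0263) and -1.90 in DN2b (SE 0.71, adjusted p = 0.0561). Without IgG library D2 the values were -2.47, -1.73 and -1.27. The DN1 call was lost with either DN1 library left out (adjusted p = 0.0819 and 0.0888), and the DN2a call with either DN2a library left out (0.144 without replicate 1 and 0.121 without replicate 2), with IgG reduced to D1 and D2 (0.0585) and with only the groups compared (0.0503). The DN2b log2 fold change was -2.24 without IgG library D1 (adjusted p = 0.00646). It was also called by DESeq2 (adjusted p = 0.00895), with no filter on low counts (0.0465) and with IgG reduced to R1 and R2 (0.00420), and not in the other 13 settings. Between stages, *Gfi1* in DN2b over DN1 had a log2 fold change of 1.19 (SE 0.76, adjusted p = 0.557) in the fit of all libraries. The 6 Delta1 libraries alone gave 1.18 (SE 0.25, adjusted p = 0.0849) and, with the year as a replicate block, 1.18 (SE 0.21, adjusted p = 0.0729). Within replicate 1 and within replicate 2, the difference of DN2b from DN1 on the scale of log2(CPM + 0.5) was 0.90 and 1.05.

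*Klf4* passed the test in none of the 7 comparisons. It had 12.5, 7.75, 20.3 and 44.7 CPM in IgG, 1.06 and 9.84 (DN1), 4.15 and 0.216 (DN2a), and 3.84 and 23.6 (DN2b), and the libraries of a single stage differed by up to 19.3-fold. The log2 fold change against IgG was -2.10 in DN1 (SE 1.24, adjusted p = 0.225), -3.25 in DN2a (SE 1.34, adjusted p = 0.0726) and -0.65 in DN2b (SE 1.15, adjusted p = 0.664). Without replicate 1 and without replicate 2, the value was -1.23 and -4.56 in DN1 and -6.53 and -2.38 in DN2a. With DN2b replicate 2 left out the value in DN2b was -2.42, with replicate 1 left out it was 0.13, and with IgG reduced to D1 and D2 it was 0.19. DESeq2 called *Klf4* lower in DN2a (log2 fold change -3.33, adjusted p = 0.00566), as did the edgeR fit of only the groups compared (adjusted p = 0.0419). With the 3 stages averaged, *Klf4* was called lower by DESeq2 (adjusted p = 0.0208) and without DN1 replicate 2 (-2.81, adjusted p = 0.0260), DN2a replicate 1 (-3.08, 0.0240) or DN2b replicate 2 (-2.59, 0.0413). DN2b replicate 2 was also the higher of the pair in *Maf* (8.18 against 1.82 CPM) and in the summed monocyte or macrophage markers (233 against 21.9 CPM, with *Ccr2* at 187 against 9.43 and *Emr1* at 40.6 against 6.89), while *Cd14*, *Ly86*, *Msr1*, *Fcgr1* and *C1qa* were at 0 in it. In DN2a the library with more *Klf4*, replicate 1, had the lower monocyte or macrophage sum (26.8 against 117 CPM, of which *Ccr2* was 17.3 and 103). The part of these cells in the *Klf4* levels was not tested.

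**Figure D3:**
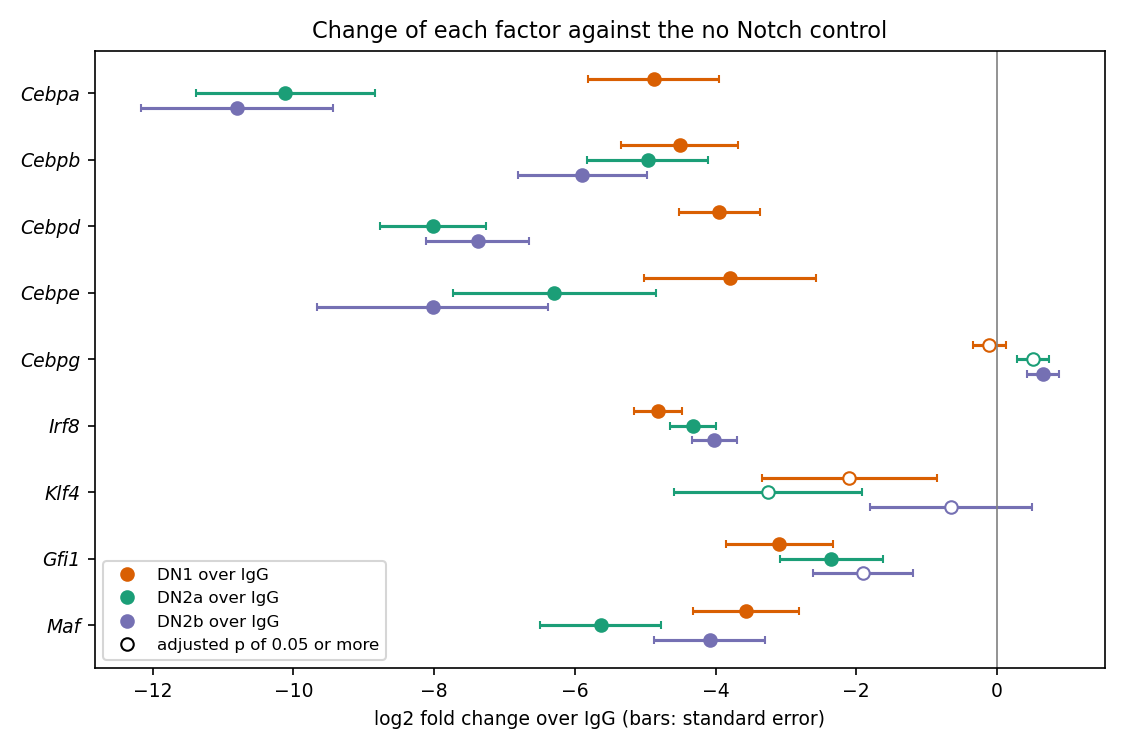
Log2 fold change of each factor over IgG in DN1, DN2a and DN2b from the edgeR fit, with bars of 1 standard error. Open symbols have an adjusted p of 0.05 or more. *Cebpa* reaches -10.80 and *Cebpd* -8.02, *Irf8* lies between -4.82 and -4.02 in the 3 stages, and *Cebpg* lies between -0.11 and 0.65.

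By comparison, 7 members were called lower in DN1 over IgG (17.0% of all genes were lower), 7 in DN2a over IgG (24.3%) and 6 in DN2b over IgG (22.5%). With the 3 stages averaged, the log2 fold changes of the 7 called members ran from -8.60 for *Cebpa* (SE 0.72, adjusted p = 2.53e-05) to -2.45 for *Gfi1* (SE 0.48, adjusted p = 0.00232). Without DN2a replicate 1 the value of *Cebpa* was -10.27, and without IgG library D2 that of *Gfi1* was -1.83. *Cebpg* had 0.35 (SE 0.17, adjusted p = 0.112) and *Klf4* -2.00 (SE 0.83, adjusted p = 0.0653). The median over the 9 members was -4.43, the value of *Maf*, against -0.03 over all genes tested. No overlap between the 6 Delta1 and the 4 IgG libraries was seen for 6 members, each lower in Delta1, where 16.5% of all genes were lower without overlap. Scaling to library size in place of TMM moved the median of all genes by 0.13 in this comparison, by 0.26 in DN1 over IgG and by -0.20 in DN2a over DN1, and the fold changes of the members that fell were larger than these shifts.

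*Cebpd* was the member called between stages. It fell from DN1 to DN2a (log2 fold change -4.07, SE 0.69, adjusted p = 0.0499), where 0.205% of genes were lower, and from DN1 to DN2b (-3.43, SE 0.67, adjusted p = 0.0378), where 0.892% were lower. Both calls were near the threshold, and 31.7% and 32.4% of genes were lower without overlap in these steps. Of the 11 monocyte or macrophage markers some moved with *Cebpd*. *Csf1r* was at 21.8 and 25.9 CPM in the DN1 libraries and at most 0.144 in DN2, and *Cd68* at 12.3 and 12.9 against 0.809 to 3.21. *Emr1* (3.67 and 0.216 in DN1, 4.63 to 40.6 in DN2) and *Mrc1* (0.0884 and 0.325 in DN1, 0.359 to 3.64 in DN2) were higher in DN2, *Ccr2* overlapped, and the summed level, 95.1 and 534 in DN1 and 21.9 to 233 in DN2, overlapped. The mast cell marker *Fcer1a* was at 320 and 67.3 in DN1 against at most 2.62 in DN2. *Cpa3*, the most abundant of that list, overlapped (1180 and 361 in DN1, 250 to 553 in DN2). The summed mast cell or basophil level also overlapped (1710 and 485 in DN1, 252 to 562 in DN2). The part of such cells in the *Cebpd* values was not tested. The first held in 7 and the second in 5 of 17 alternative settings, with adjusted p-values up to 0.522 and 0.253. The DN2a call was lost with DN1 replicate 1 left out (adjusted p = 0.203), with DN2a replicate 1 or 2 left out (0.522 and 0.288), with IgG library D2, R1 or R2 left out (0.0673, 0.0813 and 0.0955), with scaling to library size (0.0531) and with only the groups compared (0.102). Of the 10 fits that each left out 1 library, the DN2b call held in 1, without IgG library D1, and its adjusted p elsewhere was between 0.0522 (without DN1 replicate 2) and 0.226 (without DN2b replicate 1). Within replicates 1 and 2, on the scale of log2(CPM + 0.5), the difference between DN2a and DN1 was -3.43 in replicate 1 and -2.76 in replicate 2, and that between DN2b and DN1 was -3.55 and -2.20. With the Delta1 libraries alone and the year as a replicate block, the adjusted p was 0.168 for DN2a and 0.112 for DN2b, and 0.205 and 0.150 without the block.

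*Cebpa* missed the threshold between stages with a log2 fold change of -5.23 in DN2a over DN1 (SE 1.16, adjusted p = 0.122) and -5.92 in DN2b over DN1 (SE 1.32, adjusted p = 0.0632). Both DN1 libraries were above all 4 DN2 libraries, a separation shared by 31.7% of genes for DN2a and 32.4% for DN2b, and on the scale of log2(CPM + 0.5) the difference of DN2a was -4.28 within replicate 1 and -2.05 within replicate 2. With DN1 replicate 2 left out, both were called (adjusted p = 0.0127 and 0.0103), DESeq2 called both (2.85e-05 and 4.37e-05), and the fit with no filter called the second (0.0284). *Cebpb*, *Cebpe* and *Klf4* had differences of opposite sign between DN1 and DN2a in replicates 1 and 2. For *Cebpb* the differences on that scale were -1.66 in replicate 1 and 1.18 in replicate 2, for *Cebpe* -3.99 and 0.93, and for *Klf4* 1.58 and -3.85. Leaving out DN1 replicate 1 turned the fitted log2 fold change to 1.19 for *Cebpb* and 0.62 for *Cebpe*. From DN2a to DN2b, edgeR called 0 of the 9 members and 0 of all genes, with 2.74% of genes at an unadjusted p under 0.05, and DESeq2 called 29 genes and 0 members. The values of that step ran from -1.73 for *Cebpe* (SE 1.66) to 2.60 for *Klf4* (SE 1.38).

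The DN1 libraries were unlike in part of the members and alike in the rest. Replicate 1 held 337 counts of *Cebpa*, 324 of *Cebpb* and 287 of *Cebpe*, and replicate 2 held 29, 46 and 13. In CPM these were 9.49-fold, 5.75-fold and 18.0-fold higher in replicate 1, whereas *Klf4* was 9.28-fold higher in replicate 2. *Cebpd* (1.22-fold), *Irf8* (1.45-fold), *Gfi1* (0.969-fold) and *Maf* (0.792-fold) differed little. In CPM + 0.5 the folds were 7.44 for *Cebpa*, 4.96 for *Cebpb*, 11.0 for *Cebpe* and, toward replicate 2, 6.63 for *Klf4*. Over all genes tested on that scale, 21.1% differed by 2-fold or more between these libraries, 3.87% were 4-fold or more higher in replicate 1 and 1.64% in replicate 2. The summed level of the 12 neutrophil markers was 3240 CPM in replicate 1 and 98.1 in replicate 2, with none of them at 0 in either. *S100a8*, which encodes a calcium-binding protein, had 615 and 14.8 CPM, *Mpo* (myeloperoxidase) 408 and 26.2, and *Elane* (neutrophil elastase) 43.6 and 1.24. The mast cell or basophil sum was 1710 and 485 CPM, and the erythroid or megakaryocyte sum 652 and 136, while the monocyte or macrophage sum was higher in replicate 2 (534 against 95.1). *Ccr2*, a chemokine receptor gene, carried that difference with 493 against 54.5 CPM, and the other 10 markers summed to 40.2 and 40.6. Of the 11 markers, 3 reached 1 CPM in replicate 2 and 5 in replicate 1, 4 and 2 were at 0, and *Emr1* was lower in replicate 2 (0.216 against 3.67). The T-lineage sum was 373 and 430 CPM. Each of the *Cebpa*, *Cebpb* and *Cebpe* values in DN1 rests on these 2 libraries, and the part of the other cells in them was not tested. In DN2a and DN2b the neutrophil sum was 9.56 to 41.5 CPM, with *Camp* at 0 in all 4 libraries.

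**Figure D4:**
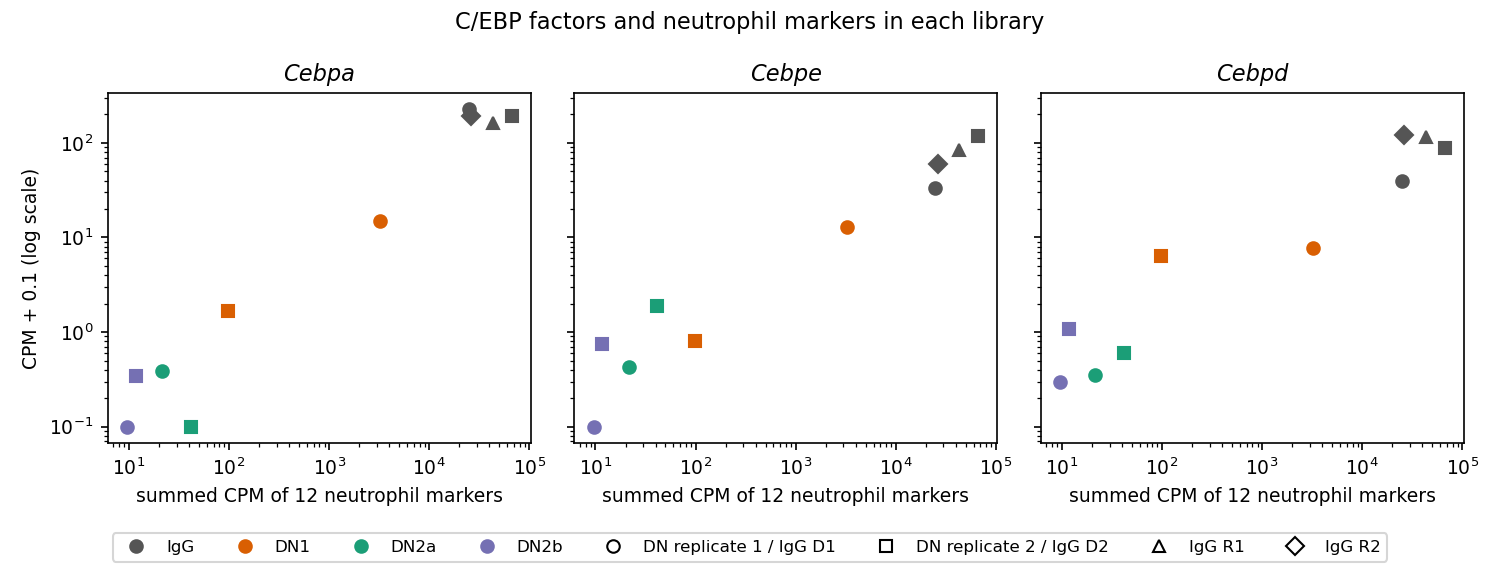
Level of *Cebpa*, *Cebpe* and *Cebpd* (CPM with 0.1 added, log axis) against the summed CPM of 12 neutrophil markers (log axis) in each of the 10 libraries. Colours are groups, and shapes name the library. DN1 replicate 1, at a marker sum of 3240, has more *Cebpa* and *Cebpe* than replicate 2, at 98.1, while their *Cebpd* levels are 7.64 and 6.27 CPM.

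Genes with the most similar pattern were ranked by Pearson's r of log2(CPM + 0.5) over the 10 libraries, which mostly contrast IgG with Delta1, so high values are common and are given as a description. The nearest to *Cebpa* were *Cybb* (r = 0.997), *Tdrd7* (0.995) and *Csf3r* (0.995), the last of which encodes the G-CSF receptor and is among the neutrophil markers. *Cebpe* was followed most closely by *Pglyrp1* (0.994), *Pygl* (0.993) and *Dok3* (0.991), *Cebpb* by *Pstpip2* (0.990), *Card9* (0.989) and *Mgam* (0.988), and *Cebpd* by *Rps6ka1* (0.992), *Nuak2* (0.991) and *Rhbdf2* (0.989). The list for *Irf8* was *Gm6377* (0.995), *Gbgt1* (0.990) and *Sdc4* (0.989), and for *Maf* it was *Iffo2* (0.989), *Lrp1* (0.986) and *Dnajb5* (0.984). *Gfi1* had *Sun2* (0.983), *9330159M07Rik* (0.973) and *Aim1l* (0.970), *Cebpg* had *Dyrk4* (0.975), *Mms19* (0.972) and *C330007P06Rik* (0.969), and *Klf4* had *Rapgef5* (0.924), *Lifr* (0.902) and *Sntb1* (0.899). Among the members, r was 0.927 to 0.969 between the pairs of *Cebpa*, *Cebpb*, *Cebpd* and *Cebpe* and -0.878 to -0.781 between *Cebpg* and these.

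Other regulators of myeloid cells were counted as a list of 24 genes, of which 22 were tested. This list too was chosen with earlier results of these data known, and its counts are a description. With the 3 stages averaged, 17 were lower than in IgG, 1 was higher and 4 were not called, with a median log2 fold change of -3.49, against 30.0% of all genes lower and 24.8% higher. *Spi1*, which encodes PU.1, the Ets factor upstream of many myeloid genes, went from 300 to 448 CPM in IgG through 78.7 to 124 in DN1 and 24.9 to 28.7 in DN2a to 12.5 to 14.7 in DN2b, without overlap at any step, as 19.4%, 31.7% and 16.1% of genes were lower in the 3 steps (log2 fold change -3.61, SE 0.18, adjusted p = 2.79e-06). It fell from DN1 to DN2a (-1.71, SE 0.27, adjusted p = 0.0460) and from DN1 to DN2b (-2.68, SE 0.28, adjusted p = 0.00340). *Id2*, an inhibitor of E proteins (-2.76, SE 0.33), and *Stat3*, a cytokine signal transducer (-0.64, SE 0.13), were the next most abundant of those called lower. *Gfi1b*, the paralogue of *Gfi1* used in erythroid and megakaryocyte cells, was the one called higher (2.52, SE 0.65, adjusted p = 0.00952), with 69.9 CPM in DN1 replicate 1, 20.9 in replicate 2, 14.1 to 26.3 in DN2a and 0.905 to 5.66 in IgG. In DN2b, at 3.64 to 3.90 CPM, it was within the IgG range and not called (0.59, adjusted p = 0.572). From DN1 to DN2b, *Irf5* (-2.00) and *Tfec* (-5.23) also fell, and *Nfil3* (3.90) and *Trib1* (2.32) rose, where 1.01% of all genes were higher. *Nfil3* and *Trib1* were nevertheless called lower than IgG in every stage. *Trib1*, which encodes a pseudokinase, was at 18.0 to 35.3 CPM in IgG, 1.63 to 2.87 in DN1, 5.75 to 6.34 in DN2a and 9.07 to 10.8 in DN2b.

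The members of lineage lists moved as groups. These lists were chosen with earlier results of these data known, so their counts are a description and not a test. All 18 neutrophil genes tested and all 18 monocyte or macrophage genes tested were lower in Delta1, with median log2 fold changes of -10.76 and -8.75, where 30.0% of all genes were lower. Examples were *S100a9* (-12.71, SE 1.25), *S100a8* (-12.79, SE 1.14) and *Lyz2*, lysozyme (-9.56, SE 0.70), in the first list and *Ctss*, cathepsin S (-6.84, SE 0.61), *Lgals3* (-8.74, SE 0.84) and *F13a1* (-11.37, SE 0.91) in the second. Of 12 T-lineage genes 11 were tested and all 11 were higher, with a median of 7.08, where 24.8% of all genes were higher. The most abundant were *Il2ra*, which encodes the CD25 used to sort the stages (log2 fold change 8.34, SE 0.58), *Tcf7* (8.55, SE 0.54) and the Notch target *Nrarp* (5.97, SE 0.81). *Hes1*, a direct Notch target and repressor, had a log2 fold change of 8.13 (SE 0.49), *Gata3* 7.07 (SE 0.33) and *Bcl11b* 6.10 (SE 0.50). *Hes1* was at 53.9 CPM on average in DN1, 42.2 in DN2a and 55.8 in DN2b, whereas *Bcl11b*, the commitment factor, was at 2.05, 12.0 and 22.5 CPM.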

How the data were processed

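RNA-seq was analysed for 10 mouse libraries, 4 of IgG and 2 each of DN1, DN2a and DN2b, grouped by the labels. Reads failing Illumina's filter were removed by the authors, who aligned the first 36 bases of read 1 to mm10 with TopHat (2.12), counted them per gene with htseq-count 0.6.1p1 (intersection-strict) and deposited raw counts per gene symbol. Cufflinks 2.2.1 is also listed in the submitters' processing notes. The gene annotation and the strand setting of the counting are not given in the sources used here. The library kit was a stranded total RNA kit. The 5 summary lines of each library were dropped, and reads aligned to several places (16.4% to 30.1% of the reads tallied) were counted on no gene.

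CPM was computed over gene rows. A filter of 1 CPM or more in 2 libraries or more, after the study's methods, left 12221 genes, which is not the number those methods give. One model with 4 groups was fitted to the counts with edgeR 4.0.16 (quasi-likelihood test, TMM scaling, prior count 0.125, common dispersion 0.189) in R 4.3.3, p-values were adjusted over these genes by Benjamini and Hochberg's method, and an adjusted p under 0.05 was a call. The standard error is the size of the log2 fold change divided by the square root of F. The script was tested on simulated counts with known changes. Nothing in the labels says that libraries came from separate cultures, while the study's methods describe independent LSK isolates. DN2a and DN2b libraries of a year share the date in their labels and were taken as paired by day. Their differences between years correlated at r = 0.408 over 12221 genes. Between stages, the blocked fit of the 6 Delta1 libraries called 0 members, as did the fit of these libraries without the block.

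Members and gene lists were chosen with earlier results of these data known. Besides the members, the text names the 3 genes most similar to each, the 3 most abundant called genes of each list, *Spi1*, *Hes1*, *Gata3*, *Tcf7*, *Bcl11b*, the listed regulators called between stages and markers where a library stood apart. *S100a8*, *Mpo*, *Elane*, *Emr1*, *Ccr2*, *Cpa3*, *Fcer1a*, *Ms4a2*, *Csf1r*, *Cd68*, *Mrc1*, *Prss34* and *Tpsb2* were picked as markers after their values were seen, as was *Gfi1b*, the single listed regulator called higher. Gene positions and exon lengths were from GENCODE vM21 (mm10) and promoters from RefSeq (GRCm38.p6). Alternatives were DESeq2 1.42.0, scaling to library size, no filter, filterByExpr, only the groups compared, the IgG pair D1 and D2 alone, the pair R1 and R2 alone, the year as a replicate block, a log2 fold change of 2 or more with no p as in the study, and each library left out. Summaries used Python 3.11.15 with pandas 2.3.3, numpy 2.4.6, scipy 1.17.1 and matplotlib 3.10.9.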

Additional observations from a re-analysis of the deposited data

How the results depend on the processing

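Of 1058 values of single members under alternative settings, 977 kept their direction and their side of the threshold, 47 lost and 17 gained the call, and 17 turned sign, none of which had been called. With each library left out in turn, the members called numbered 7 to 8 (3 stages over IgG), 4 to 7 (DN1 over IgG, the lowest without DN1 replicate 2), 5 to 7 (DN2a over IgG), 6 to 7 (DN2b over IgG), 0 to 2 (DN2a over DN1), 0 to 1 (DN2b over DN1) and 0 (DN2b over DN2a). A stage left with 1 library is then assumed to vary like the other groups. In DN2a over DN1, where 1 member was called, DESeq2 called 2, and library size scaling, only the groups compared, the replicate block and the Delta1 libraries alone gave 0. A log2 fold change of 2 or more with no p gave 4 members, each lower, where 7.09% of all genes were lower by that rule. In DN2b over DN1, also 1, DESeq2 and no filter gave 2, and only the groups compared, the replicate block and the Delta1 libraries alone gave 0. The fold rule gave 3 members there, each lower, where 6.44% of all genes were lower by it. In DN2b over DN2a the fold rule gave 1, *Klf4*, which was higher. The share of all genes higher by that rule was not computed. The Delta1 libraries alone without the block were added after seeing the data. Since DN1 shares only the year with the DN2 libraries (year differences correlated at r = 0.0668 with DN2a and 0.240 with DN2b), and IgG carries no year, the block tells little of DN1, and it changed no other call. *Cebpg* in DN1 over IgG turned from -0.11 to 0.15 with library size scaling and to 0.0558 with IgG R1 and R2 alone, with a range of -0.41 to 0.14 over the libraries left out. *Klf4* in DN2b over IgG turned to 0.19 with IgG D1 and D2 alone, and ranged from -2.42 to 0.13 over the libraries left out. Over the libraries left out, DN2a over DN1 ranged from -1.20 to 1.19 for *Cebpb*, -4.12 to 0.62 for *Cebpe* and -4.43 to 1.32 for *Klf4*, and DN2b over DN1 from -2.12 to 0.26 for *Cebpb*, -0.34 to 3.92 for *Klf4* and -1.92 to 0.19 for *Maf*. DN2b over DN2a ranged from -5.12 to 4.34 for *Cebpa*, which turned to 0.28 with the replicate block, -0.82 to 1.40 for *Cebpd*, -0.0384 to 0.34 for *Cebpg* and -0.0442 to 0.58 for *Irf8*. All genes called numbered 49 in DN2a over DN1 (0 to 229 over the libraries left out, the highest without DN1 replicate 2 and 0 without either DN2a library, and 25 to 473 in other settings, the highest with DESeq2) and 233 in DN2b over DN1 (51 to 383, and 80 to 821). In DN1 over IgG they numbered 3834 (1867 without DN1 replicate 2, 2329 with IgG D1 and D2 alone), in DN2a over IgG 5559 (2686 and 3243 without DN2a replicate 1 or 2) and in DN2b over IgG 5190 (2683 without DN2b replicate 1, 3264 with IgG D1 and D2 alone). In DN2b over DN2a DESeq2 called 29 genes, and no filter and leaving out IgG D2 gave 1 each. The causes were not tested. At 3 counts or fewer, levels of *Cebpa* in DN2 libraries are limited by depth.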
